A study of Mus musculus with 4 samples.

Results

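The blood-brain barrier and endothelial genes described here are 10 genes, chosen by symbol from the 32285 genes of the count matrices: *Cldn5*, *Slc2a1*, *Mfsd2a*, *Ocln*, *Abcb1a*, *Pecam1*, *Flt1*, *Kdr*, *Tek* and *Abcg2*. No cut on their values was used, but earlier results of these data were known when the genes were chosen. They were measured by single-cell RNA sequencing (scRNA-seq) of tdTomato-positive cells sorted from forebrains of C57BL/6 mice at postnatal day 5. Control mice carried NestinCreERT2/tdTomato/Chd8+/+ and mutant mice NestinCreERT2/tdTomato/Chd8+/F, so that both genotypes shared the Cre driver, the reporter and midfetal tamoxifen, and only the mutants carried a floxed *Chd8* allele. Each genotype had 2 libraries, every one a pool of 3 mice, and the library was the replicate. The Cre recombinase was driven by Nestin, a gene of neural progenitors, and the labels call the sorted cells neuronal. The endothelial cells below are thus those that passed the tdTomato gate, not a sample of all forebrain vessels.

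Brain capillaries differ from those of most other organs. Their endothelial cells are sealed to each other by tight junctions, take up nutrients through dedicated transporters, pump drugs and lipophilic compounds back into the blood, and hold few transport vesicles, and Wnt signals from neural tissue maintain this barrier. In the list, *Cldn5* and *Ocln* encode membrane proteins of tight junctions, and *Pecam1* encodes an adhesion molecule of the contacts between endothelial cells. *Slc2a1* encodes the glucose transporter of the barrier, *Mfsd2a* a transporter of lysophospholipids that carry omega-3 fatty acids, and *Abcb1a* and *Abcg2* encode efflux pumps. *Kdr* and *Flt1* encode receptors of vascular endothelial growth factor (VEGF), and *Tek* encodes the receptor of the angiopoietins.

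Across the 4 libraries, 17623 of 27742 barcodes were kept, with medians of 11497 to 11837.5 unique molecular identifiers (UMIs, tags that mark single transcript molecules) per cell. The share kept was 79.1% in control 1 and 79.3% in mutant 1, but 48.7% in control 2 and 45.1% in mutant 2. The median mitochondrial share of kept cells was 2.18% and 2.60% in control 1 and mutant 1, and 5.64% and 4.86% in control 2 and mutant 2. Values are UMI counts of the summed cells scaled to a total of 1000000 (CPM). Matrix headers named Cell Ranger 7.0.0 for both replicate 1 libraries and 5.0.1 for both replicate 2 libraries, so comparisons are also given within each version. Pairs of libraries shared 2 to 15 cell barcodes. *Chd8* was counted at 29.0 CPM (6 UMIs) and 59.7 CPM (27 UMIs) in endothelial cells of control 1 and control 2, and at 35.4 CPM (34 UMIs) and 64.7 CPM (58 UMIs) in those of mutant 1 and mutant 2. Tags at the 3′ end need not come from the deleted part and do not check the deletion.

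One cluster of 166 cells was named endothelial. All 19 endothelial markers, a list that held none of the 10 genes, were found in at least 10% of its cells, and the cells were clustered with the 10 genes left out. Its leading genes included *Ctla2a*, *Pglyrp1*, *Slc38a5*, *Ptprb* and *Cd93*. *Nes*, the gene whose promoter drove the Cre, was higher in endothelial cells (200 CPM over all libraries summed) than in any other type. Its level was 184, 268, 145 and 230 CPM in the endothelial cells of control 1, control 2, mutant 1 and mutant 2. The libraries held 10, 26, 62 and 68 endothelial cells in the same order, so that control 1 gave the least precise values, with 206711 UMIs in all. The 12 other types named ranged from 25 choroid plexus cells to 4946 astrocytes, and 569 cells were pericytes or other mural cells, which wrap the vessels from outside.

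Markers of red blood cells and of mural cells were spread unevenly over the endothelial sums. The 4 red blood cell markers summed to 15635 CPM in control 1, 11.1 CPM in control 2, 13658 CPM in mutant 1 and 7287 CPM in mutant 2, and 6 of the 166 cells held 99.7% of these UMIs. The 12 pericyte and mural markers summed to 3217 CPM in control 2 and to 189 to 542 CPM in the other 3 libraries, against 25264 CPM in the mural cells themselves. In 5 cells they took more than 1% of the UMIs. The source of the red blood cell and mural marker UMIs was not tested.

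All 10 genes were at their highest level in endothelial cells, against 1682 of the 26846 genes with any UMI. This is a description with no test, since cells were grouped from the same counts. *Cldn5* was counted at 4910, 5826, 5236 and 7024 CPM in endothelial cells of control 1, control 2, mutant 1 and mutant 2 (mean 5749 ± 930, SD, n = 4). The next type by mean was border macrophages at 8.12 CPM, from 3 UMIs, and no other type exceeded this mean. Endothelial cells were 0.942% of all cells and held 98.3% of the *Cldn5* UMIs, 14978 of 15237. They held 89.6% of the UMIs of *Abcb1a*, 86.5% of *Kdr*, 84.2% of *Flt1*, 79.9% of *Tek* and 72.3% of *Pecam1*. For *Mfsd2a*, *Ocln*, *Slc2a1* and *Abcg2* the share was far lower, at 20.04%, 18.3%, 16.0% and 12.7%. Over the 4 libraries together, the list thus divided into 6 genes counted mainly in endothelial cells and 4 counted mainly outside them. These shares varied by library. In control 1 that of *Pecam1* was 41.1% (134 of 326 UMIs) and that of *Tek* 52.8%. That of *Slc2a1* ranged from 4.43% in control 1 to 27.3% in mutant 2.

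**Figure D1:**
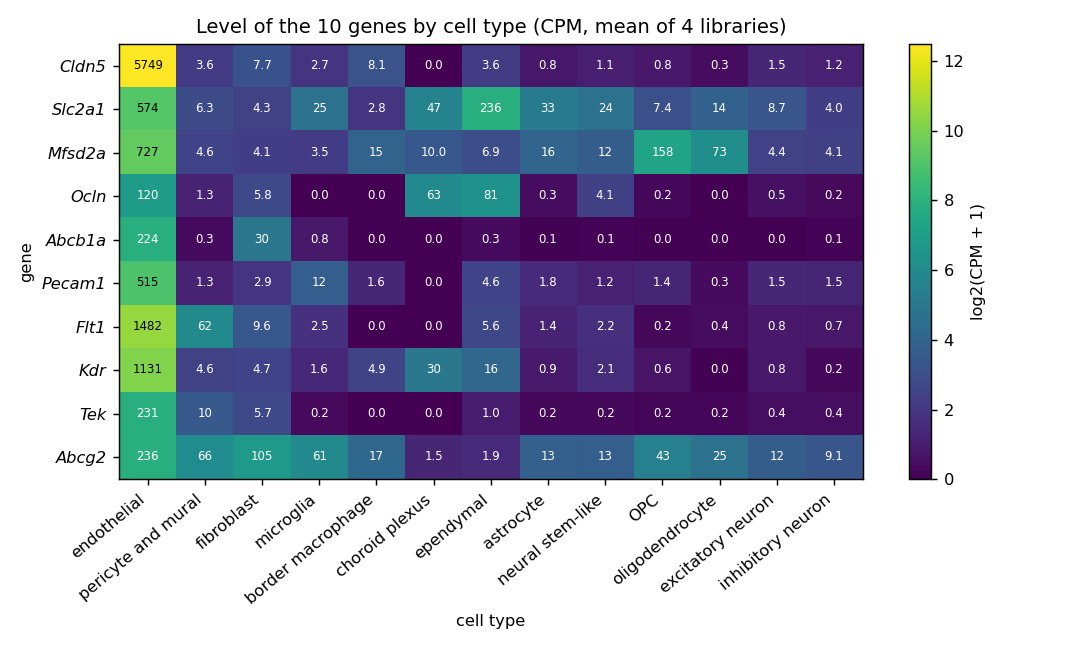
Level of each of the 10 genes (rows) in the 13 cell types (columns), as CPM of summed counts averaged over the 4 libraries; the number is the CPM and the colour is log2(CPM + 1). Rows should be read along, not against each other, since 3′ tag counts were not compared between genes: every row peaks in endothelial cells, and *Slc2a1*, *Mfsd2a*, *Ocln* and *Abcg2* also have high levels elsewhere, as *Flt1* has to a lesser degree in pericytes and mural cells (61.8 CPM).

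Promoter sequences are shown for 3 genes of different spread, *Cldn5* and *Tek* from the endothelial group and *Mfsd2a* from the shared group. RefSeq windows of 300 bases around the annotated start (250 before and 50 after, build GRCm38.p6) were held for 9 of the 10 genes, *Pecam1* being the other, and the 250 bases before the start are printed 5′ to 3′. Capitals mark matches, on either strand, to CAGGAA (a core of ETS factors, which include the endothelial regulators *Erg* and *Fli1*), CTTTGA (a core of the LEF/TCF factors of Wnt signalling) and ACAATG (a core of SOX factors). No match overlapped another. *Cldn5*, which lies on the plus strand as a single exon without intron (GENCODE vM21, mm10, chr16:18776847-18778262), is shown over chr16:18776597-18776846. *Mfsd2a*, on the minus strand (chr4:122946850-122961188), is shown over chr4:122961189-122961438. *Tek*, on the plus strand (chr4:94739289-94874976), is shown over chr4:94739039-94739288.
Cldn5: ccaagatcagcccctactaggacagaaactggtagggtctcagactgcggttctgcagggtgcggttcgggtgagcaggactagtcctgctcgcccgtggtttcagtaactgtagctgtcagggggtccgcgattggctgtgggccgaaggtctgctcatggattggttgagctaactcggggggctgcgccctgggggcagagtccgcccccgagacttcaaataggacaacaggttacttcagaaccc
Mfsd2a: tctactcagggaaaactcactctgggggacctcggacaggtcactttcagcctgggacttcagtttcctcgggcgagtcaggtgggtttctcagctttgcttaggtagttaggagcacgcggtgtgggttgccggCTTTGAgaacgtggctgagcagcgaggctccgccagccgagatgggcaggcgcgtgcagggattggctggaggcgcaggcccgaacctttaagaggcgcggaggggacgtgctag
Tek: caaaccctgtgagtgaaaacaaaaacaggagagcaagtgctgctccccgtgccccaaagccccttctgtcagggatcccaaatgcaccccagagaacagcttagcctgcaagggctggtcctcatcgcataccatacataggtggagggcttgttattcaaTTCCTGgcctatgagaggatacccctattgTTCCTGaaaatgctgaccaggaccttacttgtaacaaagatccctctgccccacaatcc
*Tek* held 2 ETS letters, both on the opposite strand at -89 and -59 from the start, and *Mfsd2a* held a LEF/TCF match at -115 and an ETS match at 19, past the printed part. No match lay in the *Cldn5* window. Over the 9 windows, ETS letters lay in those of *Mfsd2a* and *Tek*, LEF/TCF letters in those of *Mfsd2a* and *Abcb1a*, and SOX letters in that of *Abcg2*. Of all 32851 windows of the same length, 30.6% held the ETS, 16% the LEF/TCF and 12.6% the SOX letters. The windows of *Cldn5*, *Mfsd2a* and *Tek* held 12, 22 and 3 CpG, against a median of 7 over all windows. The RefSeq window of *Abcb1a* started 92986 bases upstream of its GENCODE start, while the others lay within 34 bases of theirs.

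The tight junction genes were *Cldn5* and *Ocln*. In contrast to *Cldn5*, *Ocln* (chr13:100496507-100552718, minus strand) was counted at 91.9, 97.4, 163 and 128 CPM in endothelial cells of control 1, control 2, mutant 1 and mutant 2. It stood at 70.9, 86.1, 67.0 and 99.6 CPM in ependymal cells, the ciliated cells that line the ventricles, and at 73.3, 35.0, 80.7 and 61.1 CPM in choroid plexus cells, which secrete cerebrospinal fluid. The ependymal range overlapped each of the other 2 types, while every endothelial library lay above every choroid plexus library. The choroid plexus values rest on 12, 5, 11 and 6 UMIs from 25 cells. The 8 choroid plexus markers summed to 355821 CPM in those cells, which lowers the CPM of other genes there. Whether the order holds apart from this was not tested. Within each library, however, *Ocln* was higher in endothelial than in ependymal cells. The endothelial values rest on 19, 44, 157 and 115 UMIs, and the low counts of the controls leave the order there uncertain. Between ependymal and choroid plexus cells the order differed by library. Ependymal and choroid plexus cells held 74.5% of its UMIs. Every other type lay below all 3 of them, with a highest mean of 5.79 CPM in fibroblasts.

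The transporters that take nutrients up were shared with different types. *Slc2a1* (chr4:119108711-119137983, plus strand) was counted at 581, 460, 546 and 707 CPM in endothelial cells and at 231, 247, 198 and 269 CPM in ependymal cells, a range that did not reach the endothelial one. Choroid plexus cells followed at a mean of 46.6 ± 8.57 CPM and astrocytes at 33.3 ± 3.53 CPM (SD, n = 4), where the lowest choroid plexus library (36.7 CPM) was above the highest astrocyte one (36.6 CPM) by a margin far below their spread. *Slc2a1* had a UMI in 94.6% of endothelial cells and in 80.2% of 908 ependymal cells. With each cell thinned to 2000 UMIs these shares were 59.6% and 34.6%. Antisense genes *Gm12867* and *Gm12868* overlap *Slc2a1* in the annotation, and the counting of strand is not given in the sources used here.

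*Mfsd2a* had its second site in the oligodendrocyte lineage. It was counted at 634, 790, 552 and 930 CPM in endothelial cells of control 1, control 2, mutant 1 and mutant 2, and at 117, 176, 145 and 196 CPM in oligodendrocyte progenitor cells (OPCs). Oligodendrocytes followed at 55.5, 75.8, 83.5 and 76.6 CPM, below every OPC library, and astrocytes at a mean of 16.1 CPM. Because OPCs were far more numerous (3094 cells), they held 4880 of the 9248 *Mfsd2a* UMIs, against 1853 in endothelial cells. A UMI was found in 62.6% of OPCs (26.2% when thinned), in 57.7% of oligodendrocytes (14.9%) and in 88.0% of endothelial cells (65.1%).

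The 2 efflux pumps had different distributions. *Abcb1a* (chr5:8660077-8748575, plus strand) was counted at 174, 197, 310 and 213 CPM in endothelial cells and, outside them, at 9.51, 4.75, 72.9 and 32.5 CPM in the 103 fibroblasts, where it was found in 19 cells. In no other type did its mean exceed 0.818 CPM. *Abcb1b*, a paralog, was counted at 1.19 CPM over all endothelial cells and at 45.3 CPM in microglia. How the authors' counting treated reads common to both is not given in the sources used here. *Abcg2* (chr6:58584523-58695676, plus strand) was more evenly spread. It stood at 208, 239, 247 and 252 CPM in endothelial cells, at a mean of 105 ± 53.0 CPM in fibroblasts, 66.0 ± 4.72 CPM in pericytes and mural cells, 61.2 ± 4.03 CPM in microglia and 43.0 ± 3.40 CPM in OPCs (SD, n = 4). The ranges of fibroblasts, mural cells and microglia overlapped.

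The junction and growth factor receptor genes were shared with mural cells or hardly at all. *Pecam1* (chr11:106654217-106750628, minus strand) was counted at 648, 566, 454 and 394 CPM in endothelial cells and had its next level in microglia, at 9.33, 18.0, 5.67 and 16.4 CPM. *Flt1* (chr5:147561604-147726011, minus strand), the VEGF receptor that acts largely as a trap for the ligand, was counted at 1359, 1456, 1679 and 1434 CPM in endothelial cells and at 57.4, 86.5, 45.9 and 57.5 CPM in pericytes and mural cells. It had a UMI in 37.4% of 569 mural cells (9.67% when thinned). *Tek* was counted at 227, 157, 363 and 177 CPM in endothelial cells and at 2.39, 8.70, 16.8 and 12.9 CPM in mural cells, where 10.9% of cells had a UMI. *Kdr* (chr5:75932827-75978458, minus strand), the main signalling receptor of VEGF, was counted at 1234, 1230, 849 and 1211 CPM in endothelial cells and at a mean of 29.8 ± 12.3 CPM in choroid plexus cells and 16.4 ± 11.4 CPM in ependymal cells (SD, n = 4). Its mean in mural cells was 4.56 CPM. Of the 4 receptor and adhesion genes, *Flt1* and *Tek* thus had mural cells as the next type by mean, and *Kdr* and *Pecam1* did not. For *Tek* the range of fibroblasts (0 to 11.4 CPM) overlapped that of mural cells.

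Droplets also hold free RNA, so that UMIs of these genes found in neurons may include some of it. In 3846 inhibitory neurons (median 7375 UMIs per cell, against 12471 in endothelial cells), a UMI was found in 0.572% of cells for *Cldn5* and *Flt1*, 0.442% for *Tek*, 0.130% for *Abcb1a* and *Ocln* and 0.0780% for *Kdr*. The shares for *Pecam1*, *Slc2a1*, *Mfsd2a* and *Abcg2* were 1.40%, 3.77%, 2.29% and 6.81%. *Pecam1* had 40 and 24 UMIs in inhibitory neurons of the replicate 1 libraries and 3 and 2 in those of replicate 2, which also held fewer such cells (1663 and 1449 against 391 and 343). The genes stood in different ratios to *Cldn5* in different types. Per 100 *Cldn5* UMIs, endothelial cells held 25.6 *Flt1*, 4.18 *Tek*, 4.10 *Abcg2*, 9.93 *Slc2a1* and 2.24 *Ocln* UMIs. Mural cells held 1515 *Flt1*, 263 *Tek* and 1485 *Abcg2* UMIs per 100 *Cldn5* UMIs, and ependymal cells held 5545 *Slc2a1* and 1870 *Ocln* UMIs. The part of free RNA in these UMIs was not tested.

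Single endothelial cells mostly held the whole list. Of the 166 cells, 88 had a UMI of all 10 genes, 33 had 9 of them and 160 had at least 5, and the median was 10. Among the 17457 cells of other types, the median was 0 and 11 cells had at least 5, of which 8 were ependymal and 1 of these held all 10. *Cldn5* was missing from 2 endothelial cells, *Flt1* from 7, *Kdr* from 8, *Slc2a1* from 9, *Pecam1* from 10, *Mfsd2a* from 20, *Abcg2* from 26, *Abcb1a* from 33, *Tek* from 35 and *Ocln* from 37. A missing UMI in a cell can be a limit of depth and does not by itself show that the gene was off.

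**Figure D2:**
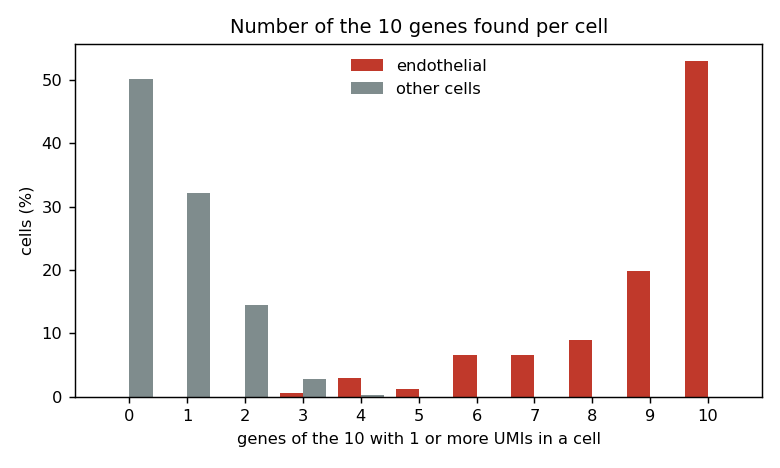
Share of cells (y axis, %) that had a UMI of 0 to 10 of the 10 genes (x axis), for the 166 endothelial cells and the 17457 cells of other types. Endothelial cells pile up at 10 genes (88 cells, 53.0%), other cells at 0.

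The spread between endothelial cells differed by gene. The middle of the cells (between the lower and upper quartile) lay between 4408 and 8327 CPM for *Cldn5* and between 348 and 772 CPM for *Slc2a1*. For *Mfsd2a* it lay between 287 and 1144 CPM, and for *Flt1* between 696 and 2128 CPM. Across cells of 1 Cell Ranger version (72 cells in replicate 1 and 94 in replicate 2), Spearman's rho of *Mfsd2a* with *Flt1* was 0.54 and 0.63, that of *Abcb1a* with *Flt1* 0.54 and 0.44, and that of *Flt1* with *Kdr* 0.45 and 0.50. *Cldn5* with *Slc2a1* gave 0.37 and 0.36. In contrast, *Cldn5* with *Abcg2* gave 0.03 and 0.06. Among lists of vessel states, the summed level of the 8 tip cell genes, which mark the leading cells of sprouts, gave rho of 0.46 and 0.29 with *Kdr*, 0.31 and 0.49 with *Flt1*, and -0.35 and -0.27 with *Tek*. That of the 8 arterial genes gave 0.47 and 0.40 with *Pecam1*, and 0.42 and 0.33 with *Flt1*. Of the 8 genes in each list, 6 tip genes and 4 arterial genes were highest in endothelial cells. *Mcam* of the tip list stood at 84.2 CPM there against 465 CPM in mural cells, and *Gja4* of the arterial list at 95.0 against 551 CPM. For *Plvap*, a tip gene, 221 of 247 endothelial UMIs came from 1 cell. These values describe cells that share libraries and depth, and in sparse counts a low rho shows nothing.

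One cell of control 1 stood apart within the endothelial cluster, and its values were chosen after they were seen. It held 221 of the 247 *Plvap* UMIs of all endothelial cells, at 5547 CPM of its own UMIs, while the other 9 cells of that library held none. *Plvap* encodes the diaphragm protein of fenestrated vessels, which lack the barrier. The same cell had *Cldn5* at 251 CPM, against 2961 to 9855 CPM in the other 9 cells, *Slc2a1* at 25.1 CPM against 423 to 1767 CPM, and no *Mfsd2a* UMI against 168 to 1055 CPM. Its *Pecam1* level of 1330 CPM was above their range (up to 848 CPM), while *Kdr* at 1757 CPM and *Flt1* at 1054 CPM lay within theirs. It also held *Gpihbp1*, which anchors lipoprotein lipase on capillaries, at 2611 CPM and *Igf2* at 602 CPM. With 39839 UMIs, of which 8.11% came from red blood cell markers, it made up 19.3% of the endothelial UMIs of control 1, and genotype comparisons are therefore given with and without it.

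Genes with the most similar profile over the 52 sums of cell type and library (13 types in 4 libraries, log2 of CPM + 10, 12265 genes compared) were the following. For *Cldn5* they were *Slc38a5* (Pearson's r = 0.990), *Ctla2a* and *Sox17*, for *Abcb1a* *Slc52a3* (0.983), for *Pecam1* *Icam2* (0.980), for *Tek* *Zfp366* (0.973), for *Flt1* *Mmp25* (0.972) and for *Kdr* *Nos3* (0.958). The best match was lower for the genes shared with other types. It was *Cmtm8* for *Ocln* (0.918), *Rassf9* for *Slc2a1* (0.897), *Fam57a* for *Mfsd2a* (0.892) and *4931406P16Rik* for *Abcg2* (0.851). The sums of a library share their cells' depth and processing, and r is a description.

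Other genes of the barrier were read from 5 lists, as CPM over the 4 libraries summed, and *Cdh5*, *Esam*, *Tie1*, *Ptprb*, *Sox17* and *Slco1a4* among them were also markers that named the cluster. Of 17 transporters of the barrier, 15 were highest in endothelial cells. *Slc38a5*, which carries glutamine, stood at 909 CPM against 0.953 CPM in the next type, *Tfrc*, the transferrin receptor, at 1073 against 45.0 CPM, *Slc7a5*, which carries large neutral amino acids, at 1242 against 65.4 CPM, and *Slc16a1*, which carries lactate and ketone bodies, at 1352 against 161 CPM. The exceptions were *Abcb1b* and *Abcc5*. Of 17 genes of Wnt signalling and barrier regulation, 11 were highest there, among them *Sox17* (157 CPM against 3.33 CPM), *Sox18* (284 against 1.71 CPM), *Foxq1* (529 against 101 CPM), *Lef1* (231 against 65.0 CPM) and the Wnt target *Apcdd1* (1110 against 144 CPM). *Axin2*, another Wnt target, was at 36.2 CPM in endothelial cells, against 95.4 CPM in mural cells and 82.7 CPM in fibroblasts. The Wnt7 coreceptor genes *Adgra2* (61.6 CPM) and *Reck* (13.1 CPM) were higher in mural cells (71.0 CPM) and fibroblasts (61.3 CPM).

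The other lists were less endothelial. Of 13 further junction genes, 5 were highest in endothelial cells, with *Cdh5* (VE-cadherin) at 444 CPM, *Esam* at 878 CPM, *Tjp1* at 604 CPM and the tricellular junction gene *Lsr* at 274 CPM. No UMI of *Cldn3*, *Cgn* or *Marveld3* was counted in the 2516487 endothelial UMIs, where 3 counts would be 1.19 CPM. *Cldn1* (0.397 CPM) was highest in choroid plexus cells, as was *Cldn3* (79.5 CPM). Of 8 vesicle and permeability genes, 5 were highest in endothelial cells, with *Icam2* at 227 CPM and *Cav1* at 165 CPM. *Plvap* is 1 of the 5, at 98.2 CPM against 43.9 CPM in ependymal cells, and without the single *Plvap*-rich cell its endothelial level was 10.5 CPM (26 UMIs), below the ependymal one. Of 13 VEGF and angiopoietin genes, 6 were, with the receptor genes *Tie1* at 181 CPM, *Flt4* at 74.3 CPM and *Ptprb*, a phosphatase that acts on Tek, at 790 CPM. Several ligand genes lay elsewhere. *Vegfa* was at 1.99 CPM in endothelial cells and 133 CPM in astrocytes, *Pgf* at 1.19 CPM against 64.0 CPM in mural cells, and *Angpt1* at 3.58 CPM against 65.3 CPM in fibroblasts. Exceptions were *Pdgfb*, the endothelial signal that recruits pericytes, at 314 CPM against 62.2 CPM in microglia, *Angpt2* at 68.0 against 50.7 CPM in fibroblasts, and *Vegfc* at 40.5 against 29.3 CPM in fibroblasts.

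The effect of the *Chd8* mutation on these genes was then asked within endothelial cells. None of the 10 genes passed the test between genotypes, nor did any of the 7616 genes tested (edgeR quasi-likelihood test, adjusted p under 0.05, 0% called). Of those genes, 129 had an unadjusted p under 0.05, none of them among the 10, and DESeq2 also called none (57 unadjusted). With the Cell Ranger version, and so the replicate number, as a term, 13 genes were called (0.171%), again none of the 10. Without the *Plvap*-rich cell, 4 genes were called, all haemoglobin genes. That cell held 99.97% of the red blood cell marker UMIs in the endothelial cells of control 1, and control 2 had 5 such UMIs. Leaving it out thus left the controls almost without them, and the calls are no separate result on genotype. *Pecam1* had values of 648 and 566 CPM in the controls and 454 and 394 CPM in the mutants. Both mutant libraries were below both control libraries, as for 10.9% of all genes tested. Its log2 change was -0.52 (SE 0.29, adjusted p = 0.9998 in edgeR), and within each Cell Ranger version it was also -0.52. Without the *Plvap*-rich cell, control 1 stood at 485 CPM, still above both mutants, and the difference within replicate 1 was -0.10 on the log2 scale and the fitted change -0.32 (SE 0.30).

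*Kdr* showed the same order of libraries, with a log2 change of -0.27 (SE 0.32). It had 1234 and 1230 CPM in the controls. Mutant 1 was low at 849 CPM, and mutant 2 at 1211 CPM lay close to both controls (log2 difference within replicate 2 of -0.02). The order ended without the *Plvap*-rich cell, when control 1 stood at 1109 CPM. *Ocln*, *Abcb1a* and *Abcg2* had both mutant libraries above both control libraries, as for 14.9% of all genes tested. Their log2 changes were 0.59 (SE 0.33), 0.47 (SE 0.33) and 0.14 (SE 0.30). Within replicates 1 and 2 the log2 differences were 0.83 and 0.40 for *Ocln*, 0.83 and 0.11 for *Abcb1a*, and 0.25 and 0.08 for *Abcg2*. This order remained for all 3 without the *Plvap*-rich cell, and for *Ocln* and *Abcg2* but not *Abcb1a* when cells with more than 1% of red blood cell or mural marker UMIs were left out. The changes of *Cldn5* (0.18, SE 0.32), *Slc2a1* (0.26, SE 0.31), *Mfsd2a* (0.04, SE 0.36), *Flt1* (0.14, SE 0.30) and *Tek* (0.50, SE 0.42) came with overlapping groups. The SEs are large against these changes, and a p that misses the threshold with 2 libraries per genotype does not show that the genotypes were alike.

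**Figure D3:**
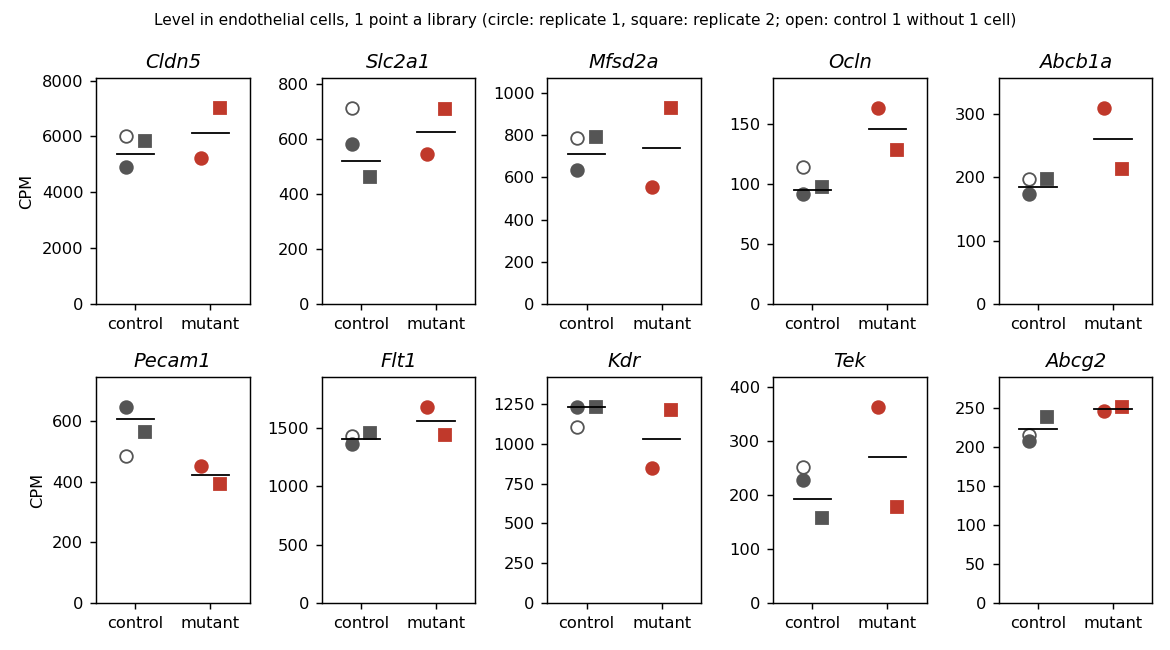
Level (CPM, y axis from 0) of each gene in the endothelial cells of each library; filled circles are replicate 1, squares replicate 2, lines the mean of the 2 libraries of a genotype, and the open circle is control 1 without its *Plvap*-rich cell. Groups do not overlap for *Ocln*, *Abcb1a*, *Pecam1*, *Kdr* and *Abcg2*, and the open circle moves *Kdr* of control 1 from 1234 to 1109 CPM, into the mutant range.

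No gene of the 5 lists passed the test in endothelial cells. The median log2 change was 0.27 over the 16 barrier transporters tested (13 above 0), 0.15 over the 16 Wnt and barrier regulators (12 above 0), -0.03 over 7 junction genes, -0.13 over 8 vesicle and permeability genes and -0.15 over 8 VEGF and angiopoietin genes, against 0.02 over all genes. The 10 genes themselves had a median of 0.16, with 8 above 0. Without the *Plvap*-rich cell these medians were 0.17 (11 above 0), 0.19 (11 above 0), 0.02, 0.06 and -0.05 for the lists, 0.10 for the 10 genes (7 above 0) and 0.01 over all genes, so that the junction and vesicle lists changed sign. *Icam1*, which binds leukocytes, had the smallest unadjusted p of the lists. It was counted at 116 and 115 CPM in the controls and 32.2 and 30.1 CPM in the mutants (log2 change -1.80, SE 0.34, adjusted p = 0.9998 in edgeR, and -1.88 without the *Plvap*-rich cell). With the Cell Ranger version as a term its adjusted p was 0.0348 in edgeR, and 0.0544 when the *Plvap*-rich cell was also left out. *Slco1a4*, an organic anion transporter, stood at 58.1 and 157 CPM in the controls and 260 and 249 CPM in the mutants (log2 change 1.14, SE 0.45). *Plvap* had a log2 change of -5.50 (SE 1.55), which became -0.58 (SE 0.98) without the single cell.

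In pericytes and mural cells, 4 of the 10 genes passed the filter on low counts and none of the 10486 genes tested was called (0%, 71 unadjusted, and 1 called in DESeq2). *Flt1* was at 57.4 and 86.5 CPM in the controls and 45.9 and 57.5 CPM in the mutants (log2 change -0.54, SE 0.35), with the mutant 2 value above that of control 1. *Tek* had both mutant libraries (16.8 and 12.9 CPM) above both controls (2.39 and 8.70 CPM), as 14.3% of genes did, while 8.84% had both below (log2 change 0.96, SE 0.60). Its control 1 value rests on 1 UMI. *Abcg2* (log2 change -0.03, SE 0.27) and *Slc2a1* (0.25, SE 0.59) overlapped. The median change of the 4 genes was 0.11, against 0.01 over all genes. The other 6 genes had too few UMIs to be tested, between 3 for *Abcb1a* and 32 for *Mfsd2a* over the 4 libraries.

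Summed over all cells, the 10 genes all had higher fitted levels in the mutants, but none passed the test, nor did any of the 19813 genes (0% called in edgeR and in DESeq2, with 16 and 35 unadjusted). In such sums, fewer cells of a type and less RNA per cell cannot be told apart. The median log2 change of the 10 genes was 0.81, against -0.00 over all genes. *Cldn5* was at 14.3 and 71.4 CPM in the controls and 71.2 and 155 CPM in the mutants, with control 2 and mutant 1 nearly equal (log2 change 1.37, SE 0.92). *Tek* was at 1.21 and 2.46 CPM in the controls and 5.51 and 4.96 CPM in the mutants (log2 change 1.47, SE 0.53, unadjusted p = 0.0498 in edgeR, adjusted p = 0.99999). *Abcb1a*, at 0.639 and 2.44 against 4.72 and 5.01 CPM, *Flt1*, at 5.18 and 24.3 against 24.3 and 36.8 CPM, and *Mfsd2a*, at 24.6 and 42.0 against 45.4 and 62.8 CPM, also had both mutants above both controls. That order held for 4 of the 10 genes, against 6.29% of all genes, and the opposite order for none, against 4.73%. The sums of the 10 genes share the same endothelial cells, so the 4 are not separate results. For *Flt1* the order rests on a narrow margin, 24.25 CPM in control 2 and 24.35 CPM in mutant 1. For the 4 genes counted mainly outside endothelial cells the fitted change was 0.20 (SE 0.31) for *Slc2a1*, 0.24 (SE 0.42) for *Ocln*, 0.28 (SE 0.30) for *Abcg2* and 0.68 (SE 0.39) for *Mfsd2a*.

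The share of endothelial cells also differed between libraries. It was 0.175% in control 1 (10 of 5710 cells, exact 95% interval 0.0840 to 0.322%), 0.875% in control 2 (26 of 2973, 0.572 to 1.28%), 1.10% in mutant 1 (62 of 5659, 0.841 to 1.40%) and 2.07% in mutant 2 (68 of 3281, 1.61 to 2.62%). The intervals cover counting error alone. Both mutant shares were above both control shares, with an exact two-sided permutation p of 0.333, the smallest that 4 libraries allow. The mutant share was 6.26 times the control share in replicate 1 and 2.37 times in replicate 2. With a mitochondrial limit of 5%, control 2 (1.40%) stood above mutant 1 (1.16%) and p was 0.667. When the endothelial cells were left out of the sums, the median log2 change of the 10 genes was 0.34, and 6 of the 10 were above 0. *Slc2a1* (-0.04), *Ocln* (-0.04), *Pecam1* (-0.24) and *Flt1* (-0.09) were then below 0. *Cldn5* kept 0.477 and 0.948 CPM in the controls and 1.28 and 2.42 CPM in the mutants (log2 change 1.32, SE 0.67). In those sums the groups of *Cldn5* did not overlap, which rested on 1 cell, found after seeing the data. An ependymal cell of mutant 1 that held UMIs of all 10 genes, and that Scrublet marked as a doublet, had 59 of the 91 *Cldn5* UMIs outside endothelial cells in that library. Without it mutant 1 stood at 0.451 CPM, below both controls (log2 change 0.96, SE 0.998). *Mfsd2a*, *Abcb1a* and *Tek* kept both mutants above both controls, with that cell and without it. Without it, *Mfsd2a* stood at 22.9 and 32.9 CPM in the controls and 38.5 and 43.6 CPM in the mutants. *Abcb1a* stood at 0.150 and 0.0542 against 0.521 and 0.396 CPM, and *Tek* at 0.572 and 0.569 against 0.620 and 1.14 CPM. *Abcb1a* and *Tek* rest on few UMIs here, in mutant 1 on 42 and 48 with that cell, and 31 of the 42 were in fibroblasts. The share of all genes with this order was not counted in those sums, so the order is not read as a result about these genes. OPCs, which held 4880 of the 9248 *Mfsd2a* UMIs, were 784 of 5710 and 467 of 2973 cells in control 1 and control 2. In mutant 1 and mutant 2 they were 1195 of 5659 and 648 of 3281 cells. The part of the number of either cell type in the sums was not tested further.

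**Figure D4:**
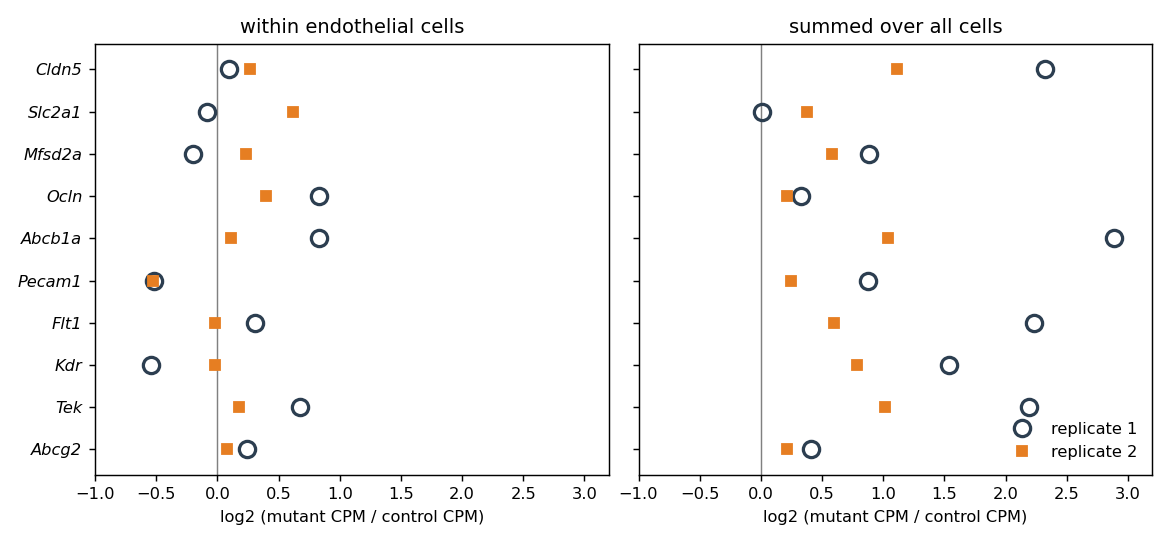
Log2 ratio of mutant to control CPM (x axis) for each gene (y axis) within replicate 1 (open circles) and replicate 2 (squares), in endothelial cells (left) and summed over all cells (right). On the left the points scatter on both sides of 0, and on the right all 20 lie above 0, between 0.01 and 2.89.

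Finally, the level of the 10 genes in endothelial cells differed between the 2 replicates, which differ in Cell Ranger version. By default, later versions of this software also count reads in introns, and earlier ones do not. *Tek*, with 130976 intronic bases, was at 339 CPM in replicate 1 and 171 CPM in replicate 2, both genotypes summed (log2 difference -0.99, replicate 2 over replicate 1). *Abcb1a* (83019 intronic bases) gave -0.46 and *Ocln* (51990) -0.35. In contrast, *Cldn5*, which has no intron, gave 0.35, *Mfsd2a* (12089) 0.64, *Kdr* (36602) 0.41 and *Slc2a1* (25767) 0.18. *Flt1* (150904), *Pecam1* (90184) and *Abcg2* (103001) were close to 0, with -0.17, -0.11 and 0.05. Over 6528 genes with at least 20 UMIs in each replicate, the median was 0.17 for genes without introns and for those with under 10000 intronic bases, 0.07 for those with at least 10000 but under 50000, and -0.39 for those with 50000 or more. All 6 of the genes in the last class were below the 4 others. The replicates also differed in *Xist*, which is transcribed from the inactive X chromosome of female cells, with 0 UMIs in the endothelial cells of both replicate 1 libraries and 598 and 1084 UMIs in those of control 2 and mutant 2. Over all kept cells *Xist* was at 0.149 and 0.153 CPM in control 1 and mutant 1, and at 1633 and 1749 CPM in control 2 and mutant 2. The reporting summary of the study describes the mice used for scRNA-seq as male. The part of the software in the differences of the 10 genes was not tested, and it cannot be told apart from the other differences between replicates.

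**Figure D5:**
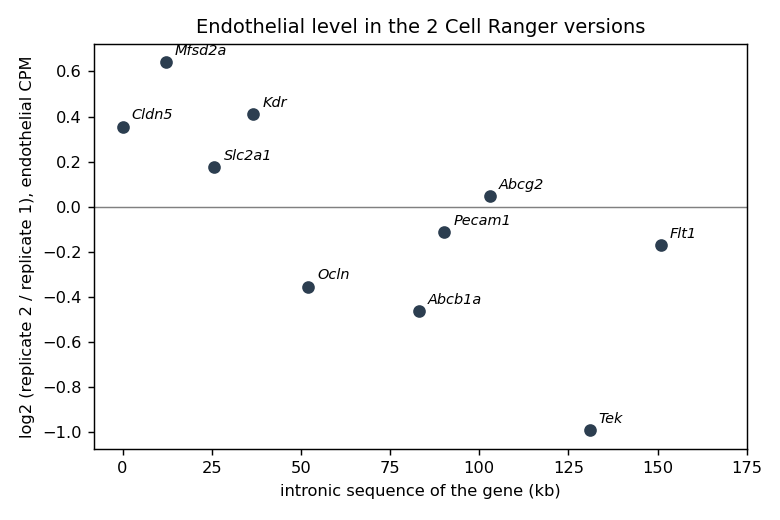
Log2 ratio of replicate 2 to replicate 1 in endothelial CPM (y axis, both genotypes summed) against the intronic sequence of each gene (x axis, kb). The 4 genes with the least intronic sequence lie above 0 (0.18 to 0.64), and the other 6 lie between -0.99 (*Tek*) and 0.05 (*Abcg2*).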

How the data were processed

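The authors sorted tdTomato-positive cells, made 10x 3′ v3.1 libraries and counted UMIs per gene and barcode with Cell Ranger on mm10 (3.0 per the labels, 7.0.0 or 5.0.1 per the file headers). The deposited values are raw counts, with no normalization. Whether introns were counted is not given in the sources used here.

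Kept barcodes had between 2000 and 40000 UMIs, 1000 or more genes, and a mitochondrial share of no more than 10%. Cells were clustered with scanpy 1.11.5 (2000 variable genes without the 10 genes, 30 components, 15 neighbours, Leiden resolution 1) into 38 clusters, named from fixed markers as 13 types. Names of cell types are thus rebuilt here and mean cells like that type. Scrublet marked 0.202 to 2.79% of cells per library, which were kept in the main analysis and removed in an alternative. Counts were summed per library and type and tested with edgeR 4.0.16 (quasi-likelihood, TMM scaling, 2 libraries against 2, Benjamini-Hochberg adjustment over all genes that passed its filter on low counts). SE is the log2 change divided by the square root of F. DESeq2 1.42.0 was an alternative. The fits were tested on simulated counts that held no replicate effect and larger changes than those of the 10 genes in endothelial cells. That test does not show how the fits treat smaller changes or replicate differences. P-values of the fits compare the genotype difference with the spread between libraries, each a pool of mice. In the main fit, which has genotype as its only term, this spread includes the differences between replicates. The spread between single mice was not measured.

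Of the gene IDs, 99.6% were found in GENCODE vM21, the source of coordinates and intronic lengths. Named genes were the 10 genes, genes of the 5 lists, up to 5 other genes of largest change past the threshold in each fit, and for each of the 10 the 3 genes of most similar profile (among genes of at least 20 CPM in some type). Which list genes are named was chosen after seeing values. The 10 genes and the lists were chosen with earlier results of these data known. The *Plvap*-rich cell, marker-rich cells, endothelial cells and an ependymal cell with all 10 genes were left out in alternatives chosen after seeing the data.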

Additional observations from a re-analysis of the deposited data

How the results depend on the processing

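In alternatives with all 4 libraries, none of the 10 genes passed an adjusted p of 0.05 in any of the 24 changes tested. None of the 80 recomputed endothelial levels moved beyond the spread of the libraries, but many of them could not. Leaving out 1 library shifts a mean by less than that spread, whatever the values. A finer clustering, or one with the 10 genes kept, gave the same endothelial levels as the main analysis. Of 345 recomputed changes, 320 kept their direction and 25 turned it. Over fits lacking 1 library each, log2 changes in endothelial cells ranged from -0.056 to 0.37 for *Cldn5*, from -0.39 to 0.36 for *Mfsd2a* (also -0.14 without control 1) and from -0.11 to 0.90 for *Tek*, those in mural cells from -0.096 to 0.022 for *Abcg2*, and those over all cells from -0.14 to 0.47 for *Slc2a1* and from -0.069 to 0.65 for *Ocln*. In the first 3 the lowest value came without mutant 2, mutant 2 and mutant 1. *Mfsd2a* in endothelial cells was at -0.018 with a mitochondrial limit of 5%, at -0.098 without the *Plvap*-rich cell (-0.13 with the replicate block too) and at -0.17 without marker-rich cells. *Abcg2* in mural cells was at 0.010 without TMM scaling and 0.0019 without Scrublet doublets. Over all cells without the endothelial ones (and with the replicate block too), *Slc2a1* was at -0.045 (-0.064), *Ocln* at -0.042 (-0.048), *Pecam1* at -0.24 (-0.23) and *Flt1* at -0.089. When the ependymal cell with all 10 genes was left out as well, these 4 were at -0.050, -0.046, -0.28 and -0.20. The cause was not tested. The count of genes called in endothelial cells, 0 in the main analysis, was 46 with no filter on low counts, 13 with the replicate block (*Plvap*, *Pdgfra*, *Igf2*, *Gpihbp1* and *Ccdc152* by largest change), 4 without the *Plvap*-rich cell (all haemoglobin genes), 5 without it and with the block, and 0 to 44 with a library left out (21 without control 1, 44 without mutant 1, 19 without mutant 2). In mural cells it was 1 with DESeq2 and 20 with no filter. Replicate differences of the genotypes correlated across genes with r of 0.390 in endothelial cells, 0.613 in mural cells and 0.913 over all cells, but the labels tie the numbers to no shared animal or day, and there are only 2 pairs. With the replicate block over all cells, 7 of the 10 genes had an unadjusted p under 0.05 in edgeR, as had 872 of all 19813 genes. The smallest adjusted p of the 10 was 0.0867 (*Cldn5*, edgeR). The sums of the 10 genes share the same endothelial cells, so the 7 are not separate results. The paired permutation of the endothelial share had a p of 0.5 (exact), its smallest, and the difference of 1.06 percentage points ranged from 0.571 to 1.55 with a library left out. Control 1 had 10 endothelial cells, which limits the precision of its values.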
